A study of Mus musculus with 15 samples.

Results

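The matrix metalloproteinases (Mmp genes), the ADAMTS proteases (Adamts genes), the ADAMTS-like proteins (Adamtsl genes) and their tissue inhibitors (Timp genes) were followed in embryonic mouse brain carrying a mutant Tbr1. Members were all protein-coding genes whose symbols have these family names and a number, with Adamts3 left out. The GRCm38 annotation holds 49 such genes. Of these, 43 had a row among the 19475 genes of the expression table and 6 (Mmp1b, Mmp3, Mmp7, Mmp10, Mmp20 and Mmp27) were not analysed here. The 43 genes were 16 Mmp, 18 Adamts, 5 Adamtsl and 4 Timp genes on 18 chromosomes, and 40 of them passed the filter of a mean normalized value of at least 5. The 3 that did not, Mmp8, Mmp13 and Mmp21, lay between 0 and 5.74 in all embryos.

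RNA of 15 C57BL/6J embryos was sequenced at embryonic stage E16.5, 5 for each genotype, and every genotype had 3 females and 2 males. Wild-type (WT) embryos were compared with heterozygous (Tbr1+/K228E, "Tbr1 hetero") and homozygous (Tbr1K228E/K228E, "Tbr1 homo") embryos of a germline knock-in line. K228E replaces a lysine by a glutamate in the T-box, the DNA-binding domain of TBR1, a transcription factor of early-born cortical neurons, and every cell of a mutant embryo carries the allele. The 3 genotypes share the strain and the age, and no agent was given. The tissue is labelled brain, and the study's methods name forebrain in one place and brain in another. Whether embryos of a genotype came from separate litters is not given, so the p-values measure the spread between these embryos.

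MMPs are zinc-dependent endopeptidases that cut collagens, laminins, proteoglycans and cell-surface proteins. They are made as inactive proenzymes and are switched on by removal of the prodomain. ADAMTS proteases are secreted, carry thrombospondin repeats and include the enzymes that cut the lecticans (aggrecan, brevican, neurocan, versican) and the enzymes that trim procollagens. ADAMTS-like proteins have the same ancillary domains without the catalytic one, and TIMPs block the active site. In the developing brain these proteins act in the meninges, in vessels, in migrating cells and in the pericellular matrix of neurons.

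Promoters are shown for 4 members on which the results below turn: Mmp24 as a gene of high and steady level, Adamts12 as the gene closest to the meningeal markers, and Adamts18 and Adamts17 for their differences between homozygous and WT embryos. Each line gives the 250 bases before the RefSeq start of the gene (GRCm38.p6), 5′ to 3′ on the strand of the gene. Capitals mark a GC box, searched as GGGCGG on both strands, so that it can read CCGCCC.
Mmp24, chr2:155775092-155775341, plus strand: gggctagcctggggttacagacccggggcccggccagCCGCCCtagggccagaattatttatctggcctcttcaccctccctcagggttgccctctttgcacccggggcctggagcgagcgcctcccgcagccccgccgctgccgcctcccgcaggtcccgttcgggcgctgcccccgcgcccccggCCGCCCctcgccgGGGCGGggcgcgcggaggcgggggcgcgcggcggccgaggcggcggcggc
Adamts12, chr15:11064523-11064772, plus strand: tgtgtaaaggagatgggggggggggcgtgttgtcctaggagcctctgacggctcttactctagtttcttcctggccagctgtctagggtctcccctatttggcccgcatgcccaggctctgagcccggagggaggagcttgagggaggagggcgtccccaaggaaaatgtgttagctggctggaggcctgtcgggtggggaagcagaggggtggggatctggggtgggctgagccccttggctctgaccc
Adamts18, chr8:113848840-113849089, minus strand: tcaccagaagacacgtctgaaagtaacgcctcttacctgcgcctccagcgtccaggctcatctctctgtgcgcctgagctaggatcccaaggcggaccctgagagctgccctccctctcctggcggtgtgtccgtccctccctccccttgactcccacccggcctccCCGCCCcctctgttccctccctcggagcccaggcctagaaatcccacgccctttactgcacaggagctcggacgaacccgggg
Adamts17, chr7:66839485-66839734, plus strand: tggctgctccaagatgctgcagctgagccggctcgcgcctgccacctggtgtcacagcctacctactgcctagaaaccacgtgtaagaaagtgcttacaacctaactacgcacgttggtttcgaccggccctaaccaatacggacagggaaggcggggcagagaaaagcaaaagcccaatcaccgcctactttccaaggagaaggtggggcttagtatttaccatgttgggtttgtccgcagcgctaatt
Mmp24 holds 3 GC boxes in this window and Adamts18 holds 1, while Adamts12 and Adamts17 hold none. RefSeq windows were at hand for 28 of the 43 genes (30 windows). A GC box stood in 63.3% of them and in 32.7% of the 32851 windows of all genes, and the median GC content was 63.2% against 52.4%. The windows of all genes (27025 genes) were not filtered by gene type or expression, while the members are all protein-coding. Whether these differences are particular to the family is therefore not known. The T-box core TCACACC, searched on both strands, stood in 3.33% of the member windows and in 3.33% of all windows. Its last letters can be shared with a GC box. The 1 member with it was Mmp21, which was too low to be tested. No match says only that these letters are not in this window.

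Levels of different genes are compared here only per length, as the normalized value divided by the exon length in kb. By the study's methods, a normalized value is the read count of a gene in an embryo divided by a size factor. Timp2, the TIMP that also takes part in activation of pro-MMP2 with MMP14, had the highest level at 1274 ± 111.5 per kb (SD, n = 15). Mmp24, which encodes the membrane-type MT5-MMP known from the nervous system, followed at 1034 ± 74.33 per kb. Adamts10, whose protein binds fibrillin, reached 397.9 ± 25.03 per kb. The membrane-type Mmp15 reached 317.0 ± 21.29 and Mmp14 285.0 ± 41.59 per kb, and these neighbours differed by less than 1 SD of Mmp14. The 5 genes together made 61.09% of the summed level of all 43 genes.

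The next genes in the order lay close together. Mmp17, a glycosylphosphatidylinositol-anchored MMP, stood at 225.1 ± 31.1, Adamts7 at 199.1 ± 27.15 and Mmp16 at 187.1 ± 16.03 per kb, so that neighbours did not differ beyond their spread. The same held for Mmp9 (160.1 ± 19.85 per kb), Mmp2 (147.3 ± 53.55), Timp3 (146.4 ± 39.84) and Mmp11 (140.0 ± 14.84). Mmp2 and Mmp9 are the gelatinases, which cut denatured collagen and type IV collagen, and Timp3 is the TIMP that is bound to the matrix and also inhibits ADAMTS proteases. At the low end stood Adamtsl5 at 3.906 ± 2.952 per kb. The collagenases Mmp13 (0.668 per kb) and Mmp8 (0.656 per kb) were near 0.

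Each family had a leading gene. Timp2 made between 81.19% and 92.47% of the summed TIMP level of an embryo and Mmp24 between 34.78% and 45.19% of the MMP level. TIMPs together made between 24.94% and 30.47% of the level of the 43 genes. The summed MMP level had a median of 2731 per kb in WT (2547 to 2774), 2636 in Tbr1 hetero (2547 to 2691) and 2535 in Tbr1 homo embryos (2467 to 2651). The summed TIMP level had medians of 1494, 1388 and 1507 per kb and the summed ADAMTS level medians of 1254, 1241 and 1215 per kb, in the same order. The ranges of the 3 genotypes overlapped in every family.

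**Figure D1:**
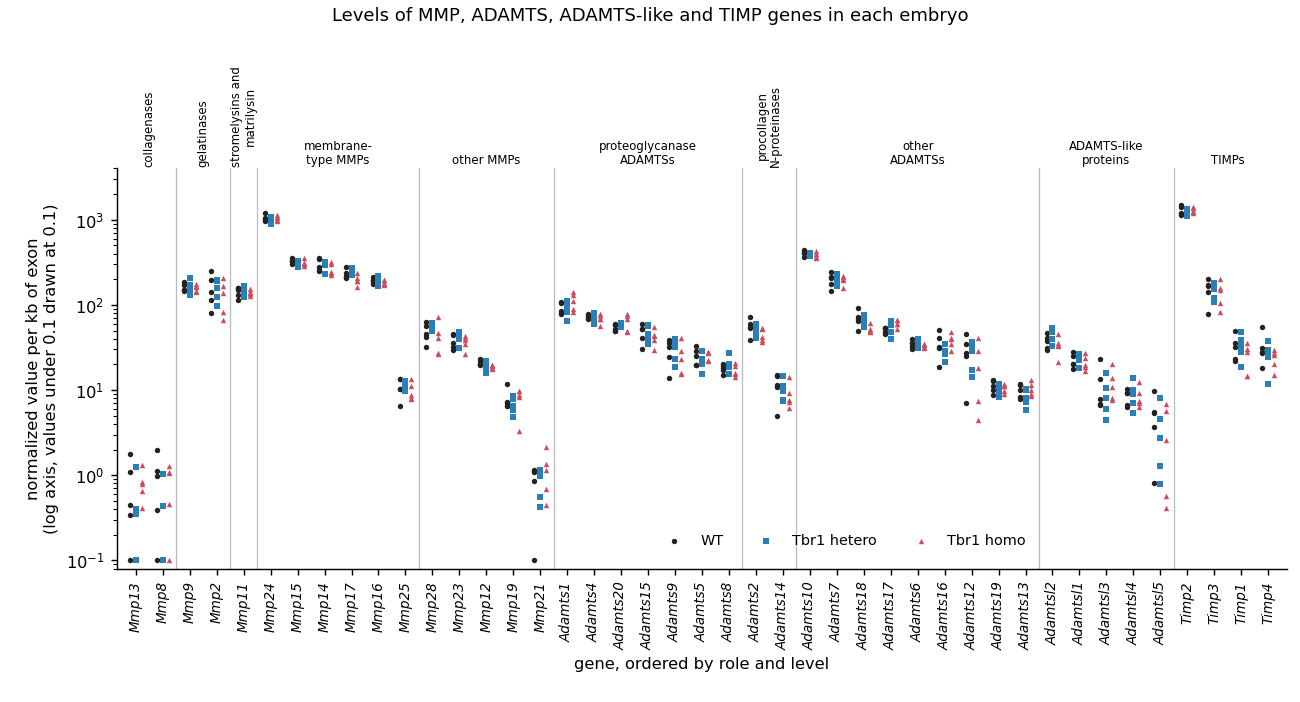
Normalized values per kb of exon (log axis) of the 43 genes, grouped by role and ordered by level, with 1 point per embryo and 5 embryos for each genotype. Timp2 (1274 per kb) and Mmp24 (1034 per kb) stand above all other genes, and the points of the 3 genotypes overlap for every tested gene (values under 0.1 are drawn at 0.1).

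The mutated gene itself was checked first. Tbr1 had a normalized value of 3537 ± 1049 in WT, 6269 ± 1532 in Tbr1 hetero and 11370 ± 3160 in Tbr1 homo embryos (SD, n = 5 each). Homozygous embryos were higher than WT by 1.69 on the log2 scale (limma, adjusted p = 0.00437), and no homozygous embryo overlapped with WT. Without the 3 embryos of highest Hox gene level (the hindbrain score) the difference was 1.48 (adjusted p = 0.0613).

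The first question was whether 1 or 2 mutant copies of Tbr1 change the level of these genes. In the limma fit used here, no member passed the adjusted threshold in any of the 3 comparisons. No member had embryos that did not overlap between genotypes. The study, which fitted a count model (DESeq2), lists Adamts18 as differentially expressed in homozygous against WT embryos. In Tbr1 hetero against WT, 0 of 40 members passed an adjusted p of 0.05 (limma on log2 of the value plus 1, Benjamini-Hochberg over 16507 genes), where 0.0% of all genes did. At an unadjusted p under 0.05 stood 0 members and 1.79% of all genes. In Tbr1 homo against WT, 0 of 40 passed, where 0.127% of all genes did (0.0606% higher and 0.0666% lower). The unadjusted count was 3 members (Mmp17, Adamts17 and Adamts18), where 3.23% of all genes were called. In Tbr1 homo against Tbr1 hetero, 0 of 40 passed, where 0.0788% of all genes did (0.0242% higher and 0.0545% lower). The unadjusted count was again 3 members (Mmp17, Adamts16 and Adamtsl2) beside 3.3% of all genes. Groups without overlap were found in 0.26%, 0.594% and 0.878% of all genes, in the order of the comparisons. The comparisons share embryos, so their counts are not independent of each other.

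The medians of the differences were smaller than the SD between single embryos. Of the 40 members, 29 were lower by sign in Tbr1 homo than in WT, where 51.28% of all genes were, and their median log2 fold change was -0.07 against -0.0023 for all genes. In Tbr1 homo against Tbr1 hetero 26 were lower (49.8% of all genes), with a median of -0.04 against 0.0004. In Tbr1 hetero against WT 25 were lower (51.15% of all genes), with a median of -0.03 against -0.0021. The SD between embryos of such a median was 0.1374, 0.1056 and 0.1184 in these 3 comparisons, larger than each median. Of the 3 embryos with the lowest score of meningeal markers, which is defined below, 2 were homozygous and 1 was WT. With that score as a covariate the median was -0.02 in Tbr1 homo against WT and 0.02 in Tbr1 homo against Tbr1 hetero, and without the 3 embryos it was -0.06 and 0.03. By role, the median log2 fold change of homozygous against WT embryos was -0.10 for the 6 membrane-type MMPs, -0.08 for the 7 ADAMTS proteoglycanases, -0.31 for the pair of procollagen N-proteinases Adamts2 and Adamts14, and -0.25 for the 4 TIMPs. Adamts2, Adamts14, Timp1 and Timp3 follow the meningeal score (r of 0.76 to 0.932). Timp2 and Timp4 did not follow it (r of -0.169 and 0.246) and differed by 0.02 and -0.38. With the score as a covariate the medians were -0.17 for the procollagen N-proteinases and -0.10 for the TIMPs, and without the 3 embryos they were -0.35 and -0.09.

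The intervals say how large a change these embryos could have held. The median width of the 95% interval was 0.6972 on the log2 scale. In Tbr1 homo against WT, 20 of 40 intervals lay within 0.5 on either side of 0 and 36 lay within 1. In Tbr1 hetero against WT 23 lay within 0.5 and 37 within 1. The narrowest were those of the high and steady genes. For Mmp24 the difference between homozygous and WT embryos was 0.01 (95% interval -0.13 to 0.15), for Timp2 0.02 (-0.14 to 0.18), for Adamts10 -0.06 (-0.19 to 0.06) and for Mmp15 -0.08 (-0.20 to 0.05). The widest was that of Adamtsl5, a gene of low level, at -0.90 (-2.57 to 0.77), and that of Adamts12 followed at -0.68 (-1.92 to 0.55).

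**Figure D2:**
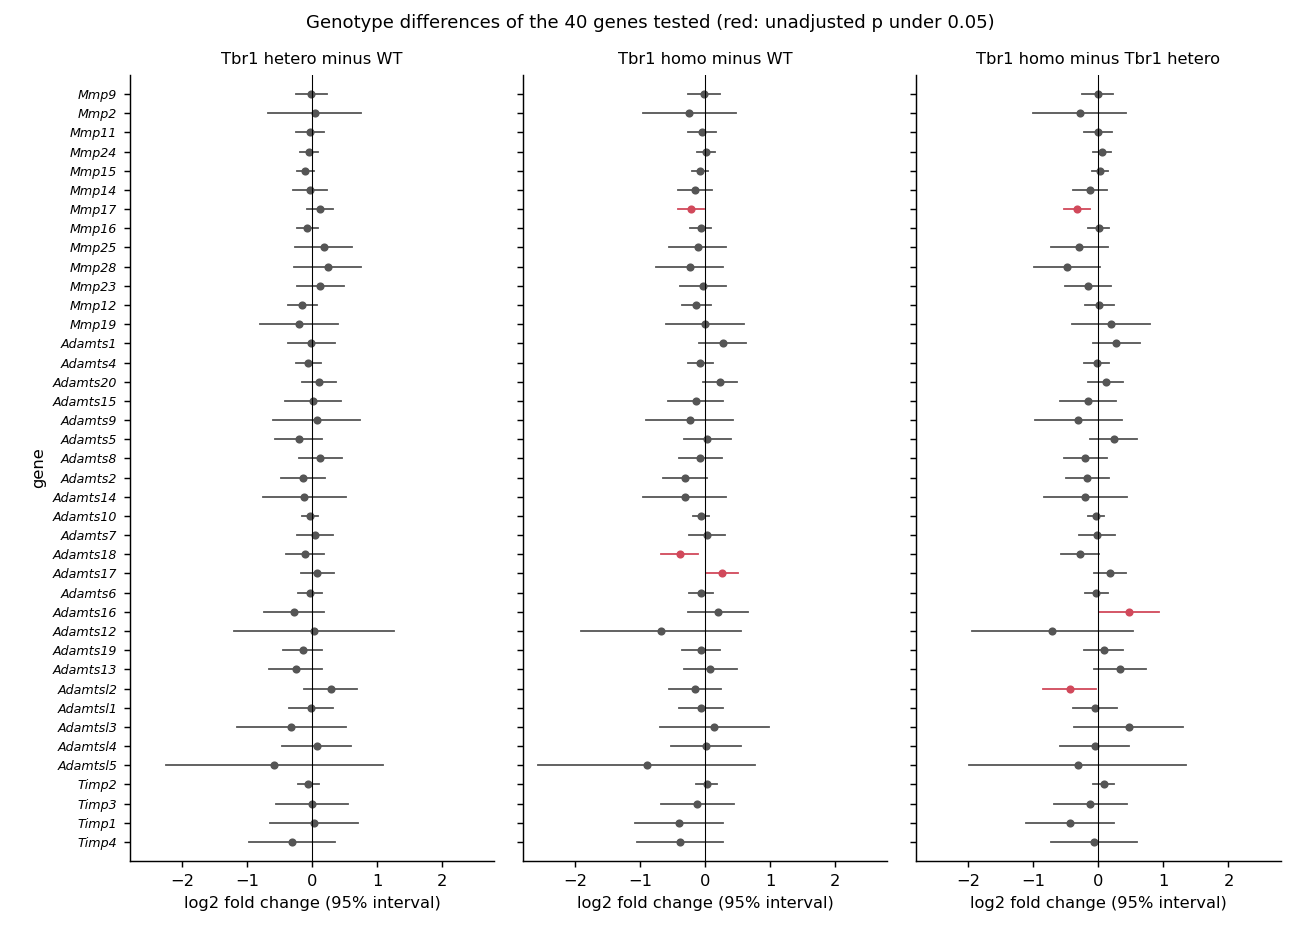
Log2 fold changes with 95% intervals of the 40 tested genes in the 3 comparisons (limma, 5 embryos per genotype), with genes grouped by role, then by level, and red for an unadjusted p under 0.05. Red genes are absent in Tbr1 hetero against WT, are Mmp17, Adamts17 and Adamts18 in Tbr1 homo against WT, and are Mmp17, Adamts16 and Adamtsl2 in Tbr1 homo against Tbr1 hetero.

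Among the membrane-type MMPs, Mmp17 (ENSMUSG00000029436, GRCm38 chr5:129584169-129611099, plus strand) came closest to the threshold. Its normalized values were 1397, 1549, 1821, 1359 and 1462 in WT, 1577, 1806, 1638, 1676 and 1506 in Tbr1 hetero, and 1269, 1079.7, 1579.6, 1361 and 1272 in Tbr1 homo embryos. Of the homozygous embryos, 4 lay below every heterozygous one and the other lay among them. Homozygous embryos were lower than heterozygous ones by a log2 fold change of -0.33 ± 0.09 (SE, adjusted p = 0.7255, exact two-sided permutation p = 0.0238, n = 5 each). Against WT the difference was -0.21 (adjusted p = 1.0, exact permutation p = 0.111), and heterozygous embryos were above WT by 0.12. The smallest p that 5 embryos against 5 allow is 0.00794.

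Mmp17 also moved with the forebrain markers. The forebrain score, the mean log2 of the value plus 1 over 6 markers (Emx1, Neurod2, Neurod6, Bcl11b, Dlx1 and Dlx2), ranged from 10.755 to 12.086 in WT, from 11.426 to 12.140 in Tbr1 hetero and from 10.904 to 12.036 in Tbr1 homo embryos. Over the 15 embryos Mmp17 followed it with r = 0.713 and rho = 0.675 (permutation, adjusted p = 0.0158 and 0.0334 over 400 relations), with r = 0.618 without the 2 embryos farthest from the median score and r = 0.866 after removal of the genotype means. With the score as a covariate, an alternative chosen after the data were seen, Mmp17 differed by -0.27 in Tbr1 homo against Tbr1 hetero (adjusted p = 0.0628) and by -0.23 in Tbr1 homo against WT (adjusted p = 0.1525), and neither passed the threshold. In the same fit 25 and 44 of 16507 genes were called, in that order. Several of the markers are themselves genes of the cortical neurons in which Tbr1 acts.

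Among the other membrane-type MMPs the differences were small. Mmp15 had normalized values between 1647 and 1929 in WT, between 1505 and 1777 in Tbr1 hetero and between 1546 and 1894 in Tbr1 homo embryos. The largest of its differences, Tbr1 hetero against WT, was -0.10 (95% interval -0.22 to 0.02). Mmp24 ranged from 4548 to 5575, from 4148 to 5099 and from 4585 to 5364 in the 3 genotypes, and the groups overlapped widely. Mmp14, the main activator of pro-MMP2, was lower in homozygous than in WT embryos by 0.16 as a log2 value (fold change -0.16, interval -0.42 to 0.10), which did not pass the test.

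Adamts18 {{25damts18}}, a secreted protease that is known from eye, lung and vessel development, had the smallest p of the members in homozygous against WT embryos. Its normalized values were 667, 729, 928, 503 and 696 in WT, 573, 775, 559, 697 and 621 in Tbr1 hetero, and 531, 501, 631, 483 and 498 in Tbr1 homo embryos. WT replicate 4 lay among the homozygous embryos and homozygous replicate 3 lay among the others, so the groups overlapped. The log2 fold change of homozygous against WT embryos was -0.39 ± 0.14 (SE, adjusted p = 1.0, exact permutation p = 0.0238, n = 5 each). Against heterozygous embryos it was -0.28 (adjusted p = 0.9963, exact permutation p = 0.0397), and heterozygous embryos differed from WT by -0.11. The study, with DESeq2 and its own correction of p-values, lists Adamts18 among its differentially expressed genes of homozygous embryos. It called more genes in that comparison than the limma fit did.

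Adamts18 rose and fell with the forebrain score within genotypes. Over all embryos r was 0.641 and rho 0.571 (permutation, adjusted p = 0.0447 and 0.1037), so that 1 of both coefficients passed the test, and after removal of the genotype means r was 0.837. Without the 2 embryos farthest from the median score r was 0.546. With the score as a covariate the difference between homozygous and WT embryos was -0.42 (adjusted p = 0.0504), again in a fit chosen after the data were seen. The 2 lowest forebrain scores belonged to WT replicate 4 and homozygous replicate 2. The part of tissue content in the values of Mmp17 and Adamts18 was not tested. In bulk RNA, fewer cells of a type and less RNA per cell cannot be told apart.

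Adamts17 {{25damts17}}, a paralogue of the fibrillin-associated ADAMTS proteases, differed in the other direction. It had normalized values of 411, 358, 373, 416 and 417 in WT, 455, 497, 374, 310.0 and 480.4 in Tbr1 hetero, and 469, 514, 517, 399.6 and 469 in Tbr1 homo embryos. All but 1 of the homozygous embryos lay above every WT embryo. The log2 fold change was 0.26 ± 0.12 (SE, adjusted p = 1.0, exact permutation p = 0.0317, n = 5 each). Adamts17 did not follow the forebrain score (r = -0.066) or the meninges score (r = 0.078).

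Adamts16 and Adamtsl2 had an unadjusted p under 0.05 in Tbr1 homo against Tbr1 hetero, and neither passed the adjusted test. Adamts16 {{25damts16}} had normalized values of 214, 221, 127, 342 and 282 in WT, 236, 146, 179, 179.6 and 197 in Tbr1 hetero, and 236, 325, 197, 279 and 269 in Tbr1 homo embryos. Of the homozygous embryos, 3 lay clearly above every heterozygous one, and the log2 fold change was 0.47 ± 0.22 (SE, adjusted p = 0.9963, exact permutation p = 0.0397, n = 5 each). The difference from WT was 0.19. Adamts16 fell as the forebrain score rose (r = -0.874, rho = -0.879, permutation, adjusted p = 0.000833 and 0.00117), and its part in the genotype difference was not tested.

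Adamtsl2 {{25damtsl2}}, a fibrillin-binding protein, had normalized values of 247, 377, 237, 329.7 and 301 in WT, 387, 315, 429.9, 429 and 263 in Tbr1 hetero, and 272, 363, 286, 260.1 and 173 in Tbr1 homo embryos. Of the heterozygous embryos, 3 lay above every homozygous one. The log2 fold change of homozygous against heterozygous embryos was -0.44 ± 0.19 (SE, adjusted p = 0.9963, exact permutation p = 0.0714, n = 5 each), and that of heterozygous against WT embryos was 0.28. Neither direction passed the adjusted test.

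**Figure D3:**
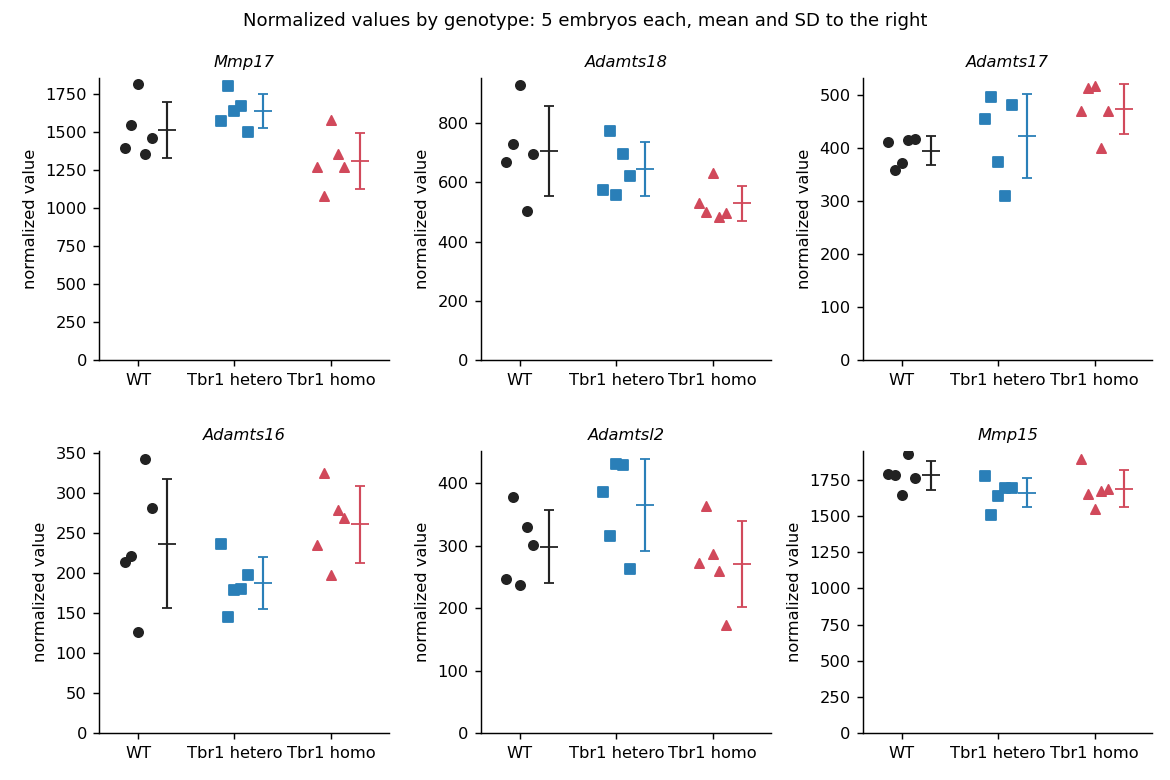
Normalized values (linear axis from 0) of 6 genes in each of the 15 embryos, with mean and SD (n = 5) to the right of each genotype. Mmp17 and Adamts18 are lowest in Tbr1 homo embryos and Adamts17 is highest there, the Adamts16 mean is lowest and the Adamtsl2 mean highest in Tbr1 hetero embryos, Mmp15 is nearly level, and the points overlap for every gene.

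The gelatinases and the other soluble MMPs gave no difference past the threshold. Mmp9 lay between 519.9 and 651 in WT, between 459.8 and 726 in Tbr1 hetero and between 502 and 624 in Tbr1 homo embryos, and homozygous embryos differed from WT by -0.02 (95% interval -0.26 to 0.22). Mmp11, or stromelysin 3, differed by -0.04 (-0.26 to 0.17). Mmp12, the macrophage elastase, had values of 168, 145, 158, 141 and 145 in WT and 132, 143, 144, 140.0 and 128 in Tbr1 homo embryos. The homozygous values overlapped with the lower part of the WT range, and the difference was -0.14 (adjusted p = 1.0, exact permutation p = 0.0397, n = 5 each). Mmp12 did not follow the microglia markers (r = 0.079). Mmp28, or epilysin, differed by -0.48 between homozygous and heterozygous embryos (95% interval -0.997 to 0.03).

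Among the ADAMTS proteases that cut proteoglycans, Adamts1 was higher in homozygous than in WT embryos by 0.27 (95% interval -0.10 to 0.63), with values of 559, 568, 445, 429 and 413 in WT and 691, 475, 584, 443 and 743 in Tbr1 homo embryos. Adamts20 differed by 0.22 (-0.04 to 0.48). The procollagen N-proteinase Adamts2 differed by -0.31 (-0.64 to 0.02). Adamts13, which cuts von Willebrand factor, differed by 0.33 between homozygous and heterozygous embryos (-0.07 to 0.73) and by 0.08 between homozygous and WT embryos. None of these passed the test, and the adjusted p was at least 0.9963 for each.

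The inhibitors did not differ past the threshold either. Timp1 had a mean of 28.87 ± 10.06 in WT, 29.60 ± 9.844 in Tbr1 hetero and 22.07 ± 8.669 in Tbr1 homo embryos (SD, n = 5 each). Timp3 had means of 1239 ± 385.6, 1203 ± 259.6 and 1136 ± 381.3, and Timp4 of 189.6 ± 82.83, 152.3 ± 56.23 and 139.4 ± 34.56. Homozygous embryos differed from WT by -0.40 (95% interval -1.08 to 0.28) for Timp1, by -0.12 (-0.68 to 0.44) for Timp3 and by -0.38 (-1.05 to 0.28) for Timp4. Adamtsl3, an ADAMTS-like protein with a large spread, had values of 51.9 to 179 in WT, 34.7 to 123 in Tbr1 hetero and 59.6 to 155 in Tbr1 homo embryos, and homozygous embryos differed from WT by 0.14 (-0.70 to 0.98). These intervals are wide beside that of Timp2.

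The width of the intervals rests on the spread among embryos within genotypes. The SD of the log2 value was taken over all 15 embryos, so it includes differences between genotypes. It had a median of 0.25 in the 35 members with a mean of at least 50, against 0.122 in all 13542 such genes. Of these members, 31 lay above the median of all genes and 10 lay at or above its 90th percentile of 0.333. The range ran from 0.092 for Adamts10 to 1.012 for Adamts12. The spacing of low values put the depth at about 26.3 to 38.1 M reads per embryo.

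Much of that spread followed the meninges. The meninges score was the mean log2 of the value plus 1 over 14 markers, among them Col1a1, Col3a1, Dcn, Lum and Slc6a13, all measured. It ranged from 5.593 to 10.011 in WT (median 9.087), from 8.055 to 9.767 in Tbr1 hetero (9.469) and from 5.914 to 9.975 in Tbr1 homo embryos (8.601). The summed value of the list ran from 2453 to 38430, from 7223 to 23360 and from 2564 to 27020 in the same order, and no marker was at 0 throughout. No difference of the score between genotypes was detected (exact permutation p = 0.778, 0.595 and 0.302 for hetero against WT, homo against WT and homo against hetero, n = 5 each). With 5 embryos per group and this spread, the test cannot show that the scores are equal. WT replicate 3 and homozygous replicates 3 and 4 had the lowest scores, and none of the heterozygous embryos was among them. The gap between these 3 and the other 12 embryos was 0.448 of the whole range of the score, so that relations are also described over the 12.

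Over the 15 embryos, 13 of 40 members followed the meninges score with an adjusted p under 0.05 for both Pearson and Spearman coefficients (100000 permutations, Benjamini-Hochberg over 400 relations of 40 genes with 10 marker lists), and all 13 relations were positive. The highest were those of Adamts12 (r = 0.967, rho = 0.957), Adamts9 (0.947 and 0.946), Timp3 (0.932 and 0.918) and Mmp2 (0.929 and 0.964), each with an adjusted p of 0.00025 for r and 0.000444 for rho. ADAMTS12 is known from connective tissue, ADAMTS9 cuts versican and is needed for vessels and basement membranes, and MMP2 is the gelatinase of fibroblasts and vessel walls. The others were Adamtsl5 (r = 0.894), Mmp28 (0.892), Mmp25 (0.88), Timp1 (0.848), Adamts14 (0.834), Adamts15 (0.791), Adamts2 (0.76), Adamts8 (0.698) and Mmp14 (0.69). Of the 40 members 11 had r of at least 0.7, where 6.63% of all tested genes did, and 0 had r of -0.7 or less.

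The relations held without the embryos of lowest score. Adamts12 had values of 375, 500.5, 76.6, 299 and 275 in WT, 315, 351, 405, 155 and 190.4 in Tbr1 hetero, and 317, 196, 48.3, 82.1 and 445 in Tbr1 homo embryos. Mmp2 had values of 835, 655, 271, 384 and 479.8, then 641, 532, 664, 329.5 and 419, then 558, 471, 226, 278 and 705 in the same order. Timp3 had values of 1658, 1349, 629.8, 1407 and 1153, then 1429, 1257, 1461, 893 and 973, then 1276, 1205, 681, 857 and 1658. Each of these genes was lowest in WT replicate 3 and homozygous replicates 3 and 4, and the genotypes overlapped throughout. Without the 2 embryos farthest from the median, r was 0.984 for Adamts12, 0.921 for Adamts9, 0.929 for Timp3 and 0.945 for Mmp2. Over the other 12 embryos r was 0.948 for Adamts12, 0.873 for Timp3 and 0.933 for Mmp2, and all 13 relations kept an r of at least 0.5, between 0.565 for Mmp28 and 0.964 for Adamts9. After removal of the genotype means r was 0.97 for Adamts12 and 0.93 for Mmp2. Adamts12 had a value of 48.33 to 82.06 in the 3 lowest embryos and of 154.8 to 500.5 in the other 12. Mmp2 had 226.3 to 278.0 against 329.5 to 835.1, Timp3 629.8 to 856.9 against 892.8 to 1658 and Adamts9 209.2 to 241.0 against 277.4 to 612.5. In all, 6 members (Adamts9, Adamts12, Adamts14, Mmp2, Mmp28 and Timp3) were lower in these 3 embryos than in any other embryo. The share of all genes that were so was not computed, so this count is a description only.

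The division ran through the families rather than between them. Among the inhibitors, Timp3 and Timp1 followed the score, while Timp2 did not (r = -0.169, permutation, adjusted p = 0.7037). Among the gelatinases Mmp2 did and Mmp9 did not (r = 0.232). Among the membrane-type MMPs, Mmp25 and Mmp14 did, while Mmp24 had r = -0.451 and rho = -0.75 (adjusted p = 0.2447 and 0.0139). Among the proteoglycanases the range ran from -0.571 for Adamts20 to 0.947 for Adamts9. Both procollagen N-proteinases followed the score.

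The meninges could not be told apart from the vessels in these embryos. The meninges score correlated with that of the endothelium at r = 0.973, of the pericytes at 0.959 and of the choroid plexus at 0.927 over the 15 embryos, and with the forebrain score at -0.235. The same 13 members followed the pericyte list by both coefficients, 12 of them the endothelium list and 12 the choroid plexus list. The cartilage and bone list was followed by 10 members and the neutrophil and blood list by 11. Of the 8 markers in each, 6 and 3 had a mean of at least 5, so these scores rest in part on values near 0. Fewer members followed the microglia list, namely Adamts2, Adamts9, Adamts12 and Adamtsl5. For these lists, and for the forebrain and hindbrain lists below, the share of all genes that followed them was not computed. Whether these counts are particular to the family is therefore not known. All lists were read from the same libraries, so the relations share their depth and scaling.

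**Figure D4:**
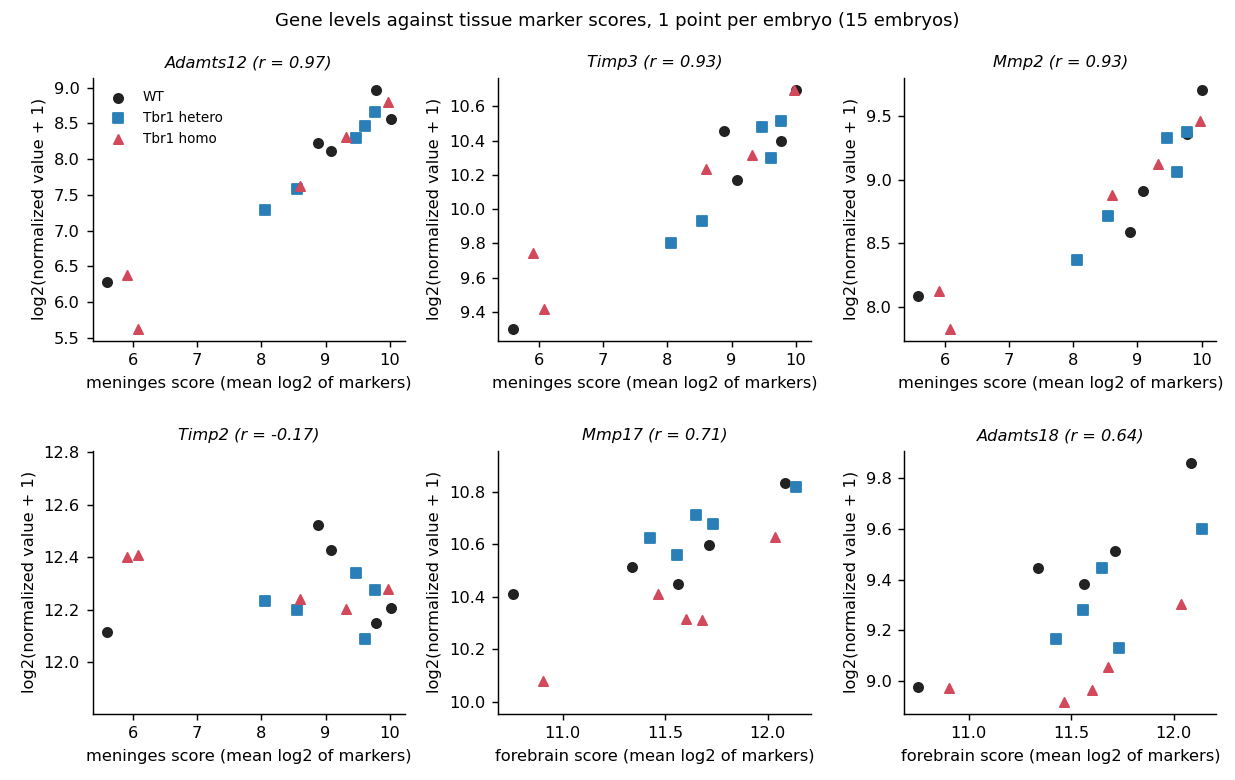
Log2 of the normalized value plus 1 against the meninges score (Adamts12, Timp3, Mmp2, Timp2) or the forebrain score (Mmp17, Adamts18), with 1 point per embryo and 15 embryos. Adamts12, Timp3 and Mmp2 rise along the meninges score in all genotypes (r = 0.97, 0.93 and 0.93) and Timp2 does not (-0.17), while for Mmp17 and Adamts18 the homozygous embryos lie low for their forebrain score.

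A second, smaller set of members followed the neural regions of the sample. With the forebrain score, Adamts7, a protease that cuts cartilage oligomeric matrix protein, Mmp11 and Mmp17 were positive by both coefficients (r = 0.677, 0.727 and 0.713), and Adamts10, Adamts16 and Timp4 were negative (r = -0.810, -0.874 and -0.859). Timp4 values were 162, 166, 107, 329 and 184 in WT, 225, 68.99, 145, 149.9 and 173 in Tbr1 hetero, and 154, 176, 89.4, 159 and 119.8 in Tbr1 homo embryos. The highest belonged to WT replicate 4, which had the lowest forebrain score, and the lowest to heterozygous replicate 2, which had the highest.

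The hindbrain and spinal cord score, from 12 Hox genes, ranged from 0.371 to 7.517 in WT, from 0.0 to 7.783 in Tbr1 hetero and from 0.28 to 4.142 in Tbr1 homo embryos, and heterozygous replicate 2 was at 0 for all 12. Timp4 (r = 0.709, rho = 0.675) and Mmp15 (0.727 and 0.757) followed it, and Adamts7 went against it (-0.736 and -0.707). Without the 2 farthest embryos r was 0.46 for Timp4, 0.656 for Mmp15 and -0.482 for Adamts7, so the relations of Timp4 and Adamts7 rest in part on WT replicate 4 and heterozygous replicate 1. The Hox level thus differed among embryos of a genotype, and whether their dissection differed is not given. With this score as a covariate, or without the 3 embryos of highest score, 0 members passed the adjusted threshold in any comparison. The part of tissue content in the genotype differences was not tested beyond this.

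**Figure D5:**
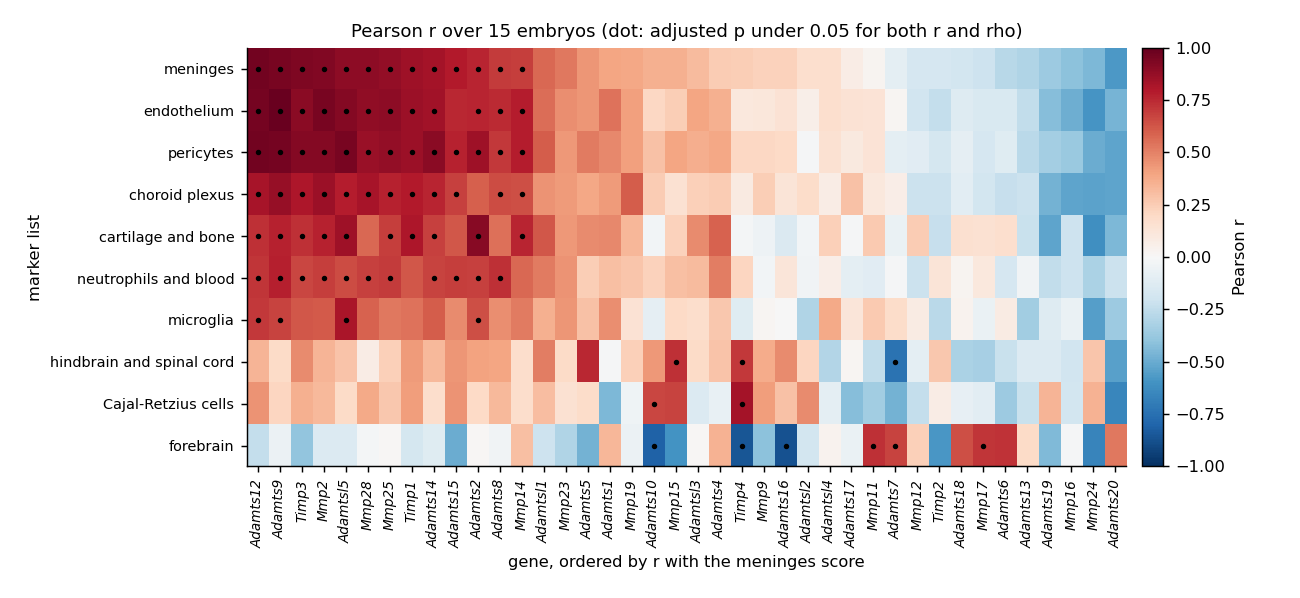
Pearson r over 15 embryos between each of the 40 genes (ordered by r with the meninges score) and the scores of 10 marker lists, with a dot where the adjusted p is under 0.05 for both r and rho. The block at the left holds the 13 genes that followed the meninges score, of which 11 also followed endothelium, pericytes and choroid plexus, and the dots of the forebrain row fall on other genes (Adamts7, Adamts10, Adamts16, Mmp11, Mmp17 and Timp4).

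The partners of the family were read from fixed lists. Of 21 activators, receptors and inhibitors outside the family (among them furin, the plasminogen activators, Reck, Lrp1 and the testicans) 20 could be tested, and 0 rose and 0 fell in any comparison. The smallest p among them in homozygous against WT embryos was that of Pcsk6, a proprotein convertase, with a log2 fold change of -0.28 (adjusted p = 1.0). Pcsk5, of the same family, followed with -0.14 (adjusted p = 1.0). The median log2 fold change of the 20 in homozygous against WT embryos was -0.09, against -0.0023 for all genes. Of all genes, 0.0%, 0.127% and 0.0788% passed in hetero against WT, homo against WT and homo against hetero. Reck, a membrane-anchored inhibitor of MMPs, and furin, which activates membrane-type MMPs, were thus among the genes that did not pass.

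Of 18 substrates all were tested, and 1 fell, in homozygous embryos against WT and against heterozygous ones. Of all genes, 0.0666% and 0.0545% were called lower in these comparisons. The list was chosen with earlier results of these data known, so this count is a description only. Reln encodes reelin, the glycoprotein secreted by Cajal-Retzius cells that guides neuronal migration and can be cut by ADAMTS proteases. It had a normalized value of 10770 ± 136.3 in WT, 10080 ± 522.5 in Tbr1 hetero and 7307 ± 701.8 in Tbr1 homo embryos (SD, n = 5 each). Homozygous embryos were lower than WT by a log2 fold change of -0.56 (adjusted p = 0.0006) and lower than heterozygous embryos by -0.47 (adjusted p = 0.0071), without overlap in either case. Without the 3 embryos of lowest meninges score the difference from heterozygous embryos was -0.46 and no longer passed (adjusted p = 0.0558), and that from WT still passed. Heterozygous embryos did not overlap with WT either, at a log2 fold change of -0.10 (adjusted p = 0.9994, exact permutation p = 0.00794), which did not pass the adjusted test. The Cajal-Retzius score, from 6 markers that do not include Reln, ranged from 9.138 to 9.64 in WT and from 8.573 to 9.312 in Tbr1 homo embryos (exact permutation p = 0.0556, n = 5 each), and its part in the change of Reln was not tested. Versican (Vcan), the lectican cut by ADAMTS1, ADAMTS5 and ADAMTS9, had a log2 fold change of -0.30 in homozygous against WT embryos (adjusted p = 1.0, exact permutation p = 0.0238) and did not pass. The study also lists Reln and Vcan among its differentially expressed genes of homozygous embryos. The median of the 18 substrates in homozygous against WT embryos was -0.23, against -0.0023 for all genes. Of these substrates, 3 (Col1a1, Col1a2 and Col3a1) are also markers of the meninges list.

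The genotype differences were also compared between the sexes. In a fit with an interaction of sex and genotype, 0 of 40 members passed an adjusted p of 0.05 for any of the 3 comparisons. Of all 16507 genes, 0 passed in each comparison too. An unadjusted p under 0.05 was found for 1, 2 and 2 members, and the share of all genes at that level was not computed. The smallest adjusted p was 0.7335. Each genotype had 3 females and 2 males, so these differences have wide errors.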

How the data were processed

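RNA of 15 mouse embryos (E16.5) was prepared with a TruSeq v2 kit, which does not mark strand, so reads of overlapping genes on opposite strands cannot be told apart. Per the labels and the study's methods, the authors quantified transcripts with Salmon 0.11.2 on GRCm38 and imported them into R 3.5.3. By the study's methods, the deposited signal values are read counts divided by DESeq2 1.22.2 size factors. They are not whole numbers, and no count model was used. Low values were not all exact multiples of 1 step per embryo, so they may not rest on 1 factor per embryo. The sums of 30.5 to 31.8 M per embryo are near equal by scaling. The spacing of low values put the depth at about 26.3 to 38.1 M reads, which sets counting error at low values only. No columns were identical (r of 0.9711 to 0.9885 between embryos of a genotype).

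Gene IDs were matched to the GENCODE annotation of GRCm38 (19469 of 19475), which gave symbols, positions and exon lengths. limma 3.58.1 (R 4.3.3; lmFit, eBayes with trend) was fitted to log2(value + 1) of 16507 genes with a mean of at least 5, all 15 embryos in 1 fit, with Benjamini-Hochberg adjustment at 0.05 over all genes. Fold changes on this scale understate changes of low genes. The fit was tested on simulated data. Exact two-sided permutation tests compared single genes, and permutation tests with 100000 resamples gave correlation p-values. Python 3.11.15 with scipy 1.17.1 was used.

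Members, roles, partner and marker lists were chosen with earlier results of these data known. The forebrain list was used without 2 of its 8 fixed markers, which are not reported here, and this was decided after the data were seen. Named genes were any member past the threshold, the 3 smallest p in each direction and comparison, the 4 Timp genes, the highest per length in each role, the 5 largest SDs and the 3 largest correlations with the meninges score. The results of alternative pseudocounts, filters, scalings, covariates, blocks and left-out embryos are given at the end. Replicate numbers of the 3 genotypes were not used to pair the embryos in the main fit.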

Additional observations from a re-analysis of the deposited data

Results flagged for a closer look

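Over 120 groups of 5 embryos (40 genes in 3 genotypes), 3 held an embryo far from the other 4 by Dixon's criterion, which flags about 1 group in 20 by chance. Mmp14 was 1390 in heterozygous replicate 4 and between 1765 and 1890 in the other heterozygous embryos. Mmp19, a soluble MMP of low level, was 41.49 in WT replicate 1 and between 22.68 and 25.24 in the other WT embryos. In homozygous replicate 4 Mmp19 was 11.83, against 29.68 to 34.66 in the other homozygous embryos. Homozygous replicate 4 also had one of the lowest meninges scores, and the part of this in the value was not tested.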

How the results depend on the processing

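Under 25 alternative settings for each comparison (10 of them leaving out 1 embryo), 18 named differences were recomputed. All 448 recomputed values kept their direction, and 0 passed the threshold. The counts of members called were 0 in every setting, the leaving out of each embryo included. The smallest adjusted p were 0.0504 (Adamts18, homo against WT, -0.42) and 0.0628 (Mmp17, homo against hetero, -0.27), both with the forebrain score as a covariate, chosen after seeing the data. Members at an unadjusted p under 0.05 numbered 0 to 3, 1 to 4 and 1 to 6 across settings in hetero against WT, homo against WT and homo against hetero, with 2 without WT replicate 3, 1 without WT replicate 2 and 1 without heterozygous replicate 4 in that order. Mmp17 in homo against hetero ranged from -0.44 (without the 3 embryos of lowest meninges score, adjusted p = 0.0642) to -0.26. Adamts18 in homo against WT ranged from -0.56 (without the 3 embryos of highest hindbrain score) to -0.29, with an adjusted p of at least 0.2377 when 1 embryo was left out. The median log2 fold change of the members was -0.12 to -0.02 in homo against WT. It changed sign in hetero against WT without WT replicate 1 (0.0019) and in homo against hetero with the meninges score as a covariate (0.02) and without the 3 embryos of lowest meninges score (0.03).

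Calls over all genes numbered 0, 21 and 13 in the 3 comparisons and fell to 7 (homo against WT) and 0 (homo against hetero) without the 3 embryos of lowest meninges score, to 6 in homo against WT without the 3 of highest hindbrain score and to 12 there with the 2 genotypes alone, and rose to 44 and 25 with the forebrain score. Leaving out 1 embryo gave 12 to 21 and 6 to 8 calls, with 12 without WT replicate 1 or homozygous replicate 3, 13 without WT replicate 2 or homozygous replicate 4, and 8 or fewer without any 1 embryo in homo against hetero. Of the calls named in the text, Reln in homo against hetero (adjusted p = 0.0558) was lost without the 3 embryos of lowest meninges score, and Tbr1 in homo against WT (0.0613) without the 3 of highest hindbrain score. Same-numbered embryos did not deviate together throughout (r of -0.2317 to 0.5062). The highest r was that of replicate 3 in homo against WT, where the highest r with another number was 0.0735. These embryos are among the 3 of lowest meninges score. The replicate block gave 0 members in every comparison and 0, 16 and 2 genes in all.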
